A study of Mus musculus with 12 samples.

Results

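Beta-cell disallowed genes are genes that most tissues transcribe and that mature beta cells keep silent or nearly silent. The levels of 10 of them (Ldha, Slc16a1, Hk1, Oat, Igfbp4, Cxcl12, Acot7, Smad3, Zyx and Pdgfra) were examined in MIN6 cells, an insulin-secreting line derived from a mouse insulinoma. These genes were taken by name, and each matched 1 of the 54022 genes in the tables. Cells carried the wild-type genotype and received vehicle or trimethylamine N-oxide (TMAO, 100 nM, 18 h), a metabolite of dietary choline, before exposure to low or high glucose. Each of the 4 conditions (low glucose vehicle, low glucose TMAO, high glucose vehicle and high glucose TMAO) had 3 libraries, described by the submitters as biological replicates of this single line. No primary islet library was analysed here, so the values are levels within a tumour-derived line and not comparisons with primary beta cells.

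Beta cells couple glucose to insulin secretion by sending glycolytic pyruvate into mitochondria. Low lactate dehydrogenase A limits the diversion of pyruvate to lactate, and low monocarboxylate transporter 1, encoded by Slc16a1, keeps circulating pyruvate and lactate from triggering insulin release. High-affinity hexokinases are also kept low, so that glucose phosphorylation follows the glucose concentration of the blood. Other disallowed genes encode enzymes of amino acid and lipid metabolism, a growth factor receptor, secreted factors and parts of the cytoskeleton.

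Library totals ranged from 16793162 to 22340542 counted fragments. Differential expression was tested in edgeR on the 16222 genes that passed a filter on low counts, and a gene was called at a Benjamini-Hochberg adjusted p under 0.05. Levels are given in FPKM, which corrects for library total and for the joint length of all annotated exons of a gene. That length can exceed a single transcript. It is 3310 bases for Ldha, whose longest coding transcript has 1815, and 4426 for Slc16a1, whose longest also has 4426. Which transcripts were made was not tested, so comparisons between genes are approximate. The beta cell character of the cells was checked with 14 beta cell markers. Of these, 14 had an FPKM of at least 1 in every library, and Ins2 was the highest with a mean of 25490. Ins1 had 4666 and Pdx1, a beta cell transcription factor, had 187. Of 10 fibroblast and stromal markers, 0 reached 1 in every library, and Col3a1, Dcn, Lum and Pdgfrb had no count in any library. Gcg, which encodes glucagon, stood out among markers of other islet cells with 216 FPKM. Since the RNA came from whole cultures, fewer cells with a transcript and less of it per cell cannot be told apart.

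Of the 10 disallowed genes, 7 were expressed, defined as an FPKM of at least 1 in all 12 libraries. For reference, 47.7% of the 22040 protein-coding genes in the tables met the same rule. Igfbp4 was the highest with a mean of 19.8 FPKM, followed by Zyx with 9.62 and Hk1 with 8.98. Slc16a1 (3.33), Ldha (3.31), Cxcl12 (2.98) and Smad3 (2.54) formed a lower group. The libraries of Igfbp4 did not overlap those of Zyx, and those of Hk1 did not overlap those of Slc16a1, so these steps in the order exceeded the spread over libraries. That spread does not cover the exon lengths, which are the same in every library. They are 4416 bases for Igfbp4, 5390 for Zyx and 8532 for Hk1, against 3831, 3188 and 4278 in their longest coding transcripts. Zyx and Hk1 overlapped each other, as did every pair of neighbours from Slc16a1 down to Smad3. Among protein-coding genes, Igfbp4 ranked above 86.9%, Hk1 above 74.4%, Ldha above 59.7% and Smad3 above 57.2%.

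**Figure D1:**
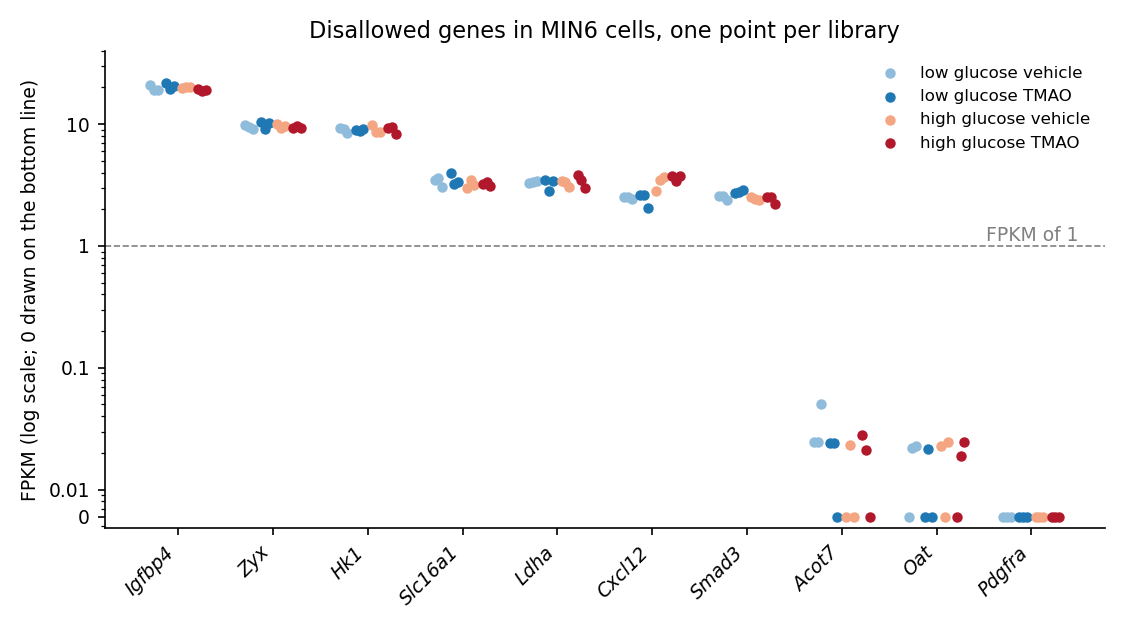
FPKM on a log axis of each of the 10 disallowed genes, with 1 point per library, coloured by condition, and values of 0 drawn on the bottom line. The 7 genes on the left lie above the dashed line at an FPKM of 1 in all 12 libraries, whereas Acot7 and Oat stay below 0.1 and Pdgfra is at 0 throughout.

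The remaining 3 genes were close to absent and are called silent below, although Oat and Acot7 had a few counts. Pdgfra, the receptor for platelet-derived growth factor A, had 0 counts in all 12 libraries together, which allows up to 0.00132 FPKM (3 counts over the pooled libraries, counting error only). Oat, a mitochondrial enzyme that interconverts ornithine and glutamate semialdehyde, had 7 counts in all, with at most 1 in any library, or 0.0131 FPKM pooled (exact 95% Poisson interval 0.00527 to 0.027). Acot7, a cytosolic acyl-CoA thioesterase, had 9 counts in all and at most 2 in a library, or 0.0187 FPKM pooled (0.00857 to 0.0356). In a single library, 3 counts of Oat correspond to 0.0569 to 0.0757 FPKM, and every library was under that floor. These genes were not tested between conditions, and no fold change is given for them.

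The genes lie on 8 chromosomes of the mouse genome (GRCm38, the coordinates in the tables and in GENCODE M21). Ldha (ENSMUSG00000063229) spans chr7:46841475-46855627, Slc16a1 chr3:104638668-104658462, Hk1 chr10:62268855-62379908 and Cxcl12 (ENSMUSG00000061353) chr6:117168535-117181367. Smad3 spans chr9:63646767-63757994, Igfbp4 chr11:99041244-99054392 and Zyx chr6:42349630-42360213. The silent genes Oat (chr7:132557478-132576398), Acot7 (chr4:152178134-152271855) and Pdgfra (chr5:75152292-75198215) are annotated as protein-coding like the others.

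RefSeq promoter windows on GRCm38.p6, from 250 bases before to 50 after a transcript start, were available for all 10 genes, in 12 windows since Ldha and Hk1 have 2 starts each. The windows below are shown because they belong to the best known disallowed genes, Ldha and Slc16a1, to the gene that responded to glucose, Cxcl12, and to Oat and Pdgfra, which were silent. Capitals mark the E-box CACGTG, the cyclic AMP response element TGACGTCA and the GC box core CCGCCC, searched on both strands, and none of these motifs contains another. The Ldha window is chr7:46845554-46845853 (plus strand, the first of its starts), the Slc16a1 window chr3:104638414-104638713 (plus), the Cxcl12 window chr6:117168285-117168584 (plus), the Oat window chr7:132576349-132576648 (minus) and the Pdgfra window chr5:75152001-75152300 (plus).
Ldha: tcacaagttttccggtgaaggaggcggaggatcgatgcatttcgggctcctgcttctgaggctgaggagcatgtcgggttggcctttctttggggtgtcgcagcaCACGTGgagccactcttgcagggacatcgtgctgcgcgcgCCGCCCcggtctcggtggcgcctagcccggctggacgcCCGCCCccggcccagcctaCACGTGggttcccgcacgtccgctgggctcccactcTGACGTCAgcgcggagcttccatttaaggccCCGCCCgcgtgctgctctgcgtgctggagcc
Slc16a1: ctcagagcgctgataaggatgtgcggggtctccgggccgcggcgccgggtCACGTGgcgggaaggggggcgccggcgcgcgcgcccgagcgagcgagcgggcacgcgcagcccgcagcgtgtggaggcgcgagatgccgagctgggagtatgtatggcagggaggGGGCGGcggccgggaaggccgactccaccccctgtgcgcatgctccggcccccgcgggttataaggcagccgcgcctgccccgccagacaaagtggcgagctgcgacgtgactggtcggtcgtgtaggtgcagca
Cxcl12: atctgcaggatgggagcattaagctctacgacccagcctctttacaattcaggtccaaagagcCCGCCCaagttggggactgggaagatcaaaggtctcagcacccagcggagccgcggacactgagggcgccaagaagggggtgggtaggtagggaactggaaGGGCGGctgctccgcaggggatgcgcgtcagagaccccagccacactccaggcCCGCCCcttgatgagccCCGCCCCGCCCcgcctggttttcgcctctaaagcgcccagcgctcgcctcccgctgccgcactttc
Oat: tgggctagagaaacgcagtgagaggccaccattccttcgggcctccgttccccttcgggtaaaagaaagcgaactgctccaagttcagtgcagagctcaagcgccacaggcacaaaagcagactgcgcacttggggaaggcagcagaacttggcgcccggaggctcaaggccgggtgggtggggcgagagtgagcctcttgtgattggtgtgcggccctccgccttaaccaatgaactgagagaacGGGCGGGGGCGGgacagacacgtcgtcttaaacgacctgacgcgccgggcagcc
Pdgfra: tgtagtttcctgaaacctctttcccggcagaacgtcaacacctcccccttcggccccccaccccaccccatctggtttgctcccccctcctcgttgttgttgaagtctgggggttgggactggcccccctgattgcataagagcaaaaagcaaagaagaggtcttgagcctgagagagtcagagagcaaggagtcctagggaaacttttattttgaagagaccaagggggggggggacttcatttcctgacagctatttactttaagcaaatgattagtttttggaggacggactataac

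CACGTG was found in the first Ldha window and the Slc16a1 window, 2 of 12, and in 7.15% of all 32851 promoters of this length. TGACGTCA was found in the first Ldha window alone, against 1.79% of all promoters. CCGCCC was found in 7 of 12 windows, including those of silent Oat and Acot7, against 35.7% of all promoters. CpG dinucleotides, the sites of DNA methylation, numbered 42 in the Slc16a1 window, 30 in the first Ldha window, 20 in that of Cxcl12 and 22 in that of Oat, compared with a median of 7 over all promoters. Of the 12 windows, 9 held more CpG than the median promoter and 3 held fewer, those of silent Acot7 (6) and Pdgfra (5) and the first of expressed Hk1 (1, against 20 in its second window). Silent Oat and expressed Cxcl12 had similar counts. The starts of Acot7 and Zyx, both starts of Ldha and the second start of Hk1 lie inside the annotated gene, that of Zyx by 198 bases. A match describes the letters only, and methylation was not measured.

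Lactate dehydrogenase A, the subunit that favours conversion of pyruvate to lactate, was transcribed in every library. Ldha had FPKM values of 3.27, 3.33 and 3.43 in low glucose vehicle, 3.45, 2.83 and 3.39 in low glucose TMAO, 3.39, 3.32 and 3.02 in high glucose vehicle and 3.79, 3.49 and 3.00 in high glucose TMAO. All 4 conditions overlapped. Its log2 fold change for high against low glucose, averaged over treatments, was 0.02 (SE 0.0757, 95% interval -0.13 to 0.18, adjusted p = 0.913). The Ldhb subunit, which favours the reverse reaction, had the higher FPKM, with a mean of 5.23. The ratio of Ldha to Ldhb on this scale lay between 0.552 and 0.75 in the 12 libraries. Ldhd, a mitochondrial enzyme acting on D-lactate, had 1.35 FPKM, whereas the testis form Ldhc had 4 counts and Ldhal6b none. Of the 3 tested members of the family, edgeR called 0 with glucose or with TMAO, and 0 had an unadjusted p under 0.05. DESeq2 and limma also called 0 of them. The same held for the other lists of related genes below, apart from the cell type markers, wherever edgeR called 0 in a comparison. Transcripts of 4 other genes matched 55% of the Ldha transcript at 95% identity or more, and these genes summed to 0.0833 mean counts, while Ldha itself had 207.

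Slc16a1 encodes the proton-linked carrier that moves pyruvate and lactate across the plasma membrane. Its FPKM values were 3.46, 3.64 and 3.04 in low glucose vehicle, 3.98, 3.25 and 3.32 in low glucose TMAO, 2.97, 3.50 and 3.13 in high glucose vehicle and 3.24, 3.38 and 3.11 in high glucose TMAO. The conditions overlapped, and the log2 fold change with glucose averaged over treatments was -0.09 (SE 0.0688, adjusted p = 0.501). Slc16a1 was the more abundant of the lactate carriers: Slc16a3 (MCT4), the carrier typical of glycolytic tissue, had 0.244 FPKM, and Slc16a7 (MCT2) had 1.06. The ratio of Slc16a1 to Slc16a3 lay between 9.45 and 20.5. Basigin (Bsg), the chaperone that brings these carriers to the membrane, had 355 FPKM, the highest of its list, and embigin (Emb), a related chaperone, had 50.9. In this list of 9 genes, 2 were called for high against low glucose averaged over treatments, where 8.19% of all tested genes were called, and both were higher: Slc16a6 (log2 fold change 0.20, adjusted p = 0.0196) and Emb (0.12, adjusted p = 0.0109). The call of Slc16a6 was lost under 6 of 19 alternatives and that of Emb under 1. The thyroid hormone and aromatic amino acid carrier Slc16a10 had 20.03 FPKM and was not called.

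Downstream of pyruvate, 14 of 15 genes of mitochondrial pyruvate entry and NADH shuttles were expressed, and 0 of 15 were called in any comparison. At an unadjusted p under 0.05 only Mpc1 passed, in 3 of the 7 comparisons. The mitochondrial pyruvate carrier subunits Mpc1 and Mpc2 had 7.08 and 5.44 FPKM, and cytosolic malate dehydrogenase, Mdh1, was the highest of the list with 135. Ldha was therefore below Mpc1 and Mpc2 on the FPKM scale, with no overlap of libraries between Ldha (at most 3.79) and Mpc2 (at least 4.99). This order rests on 3310 exonic bases for Ldha, whose longest coding transcript has 1815, and was not tested with transcript lengths.

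Hk1 encodes a high-affinity hexokinase. Its FPKM values were 9.21, 9.12 and 8.48 in low glucose vehicle, 8.89, 8.73 and 9.11 in low glucose TMAO, 9.88, 8.66 and 8.56 in high glucose vehicle and 9.36, 9.40 and 8.29 in high glucose TMAO. No condition stood apart, and the log2 fold change with glucose averaged over treatments was 0.02 (SE 0.042, adjusted p = 0.868). Hk2 had 1 count in all 12 libraries and Hk3 had 15, whereas Hkdc1 had 0.523 FPKM. Hk1 was thus the main high-affinity hexokinase transcript here, and neither Hk1 nor Hkdc1 was called with glucose or TMAO or had an unadjusted p under 0.05 in edgeR. The antisense gene Hk1os shares 157 exonic bases with Hk1 and had a mean of 13.7 counts against 1450. The sources used here do not say whether counting used strand, so reads in the shared bases cannot be told apart.

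**Figure D2:**
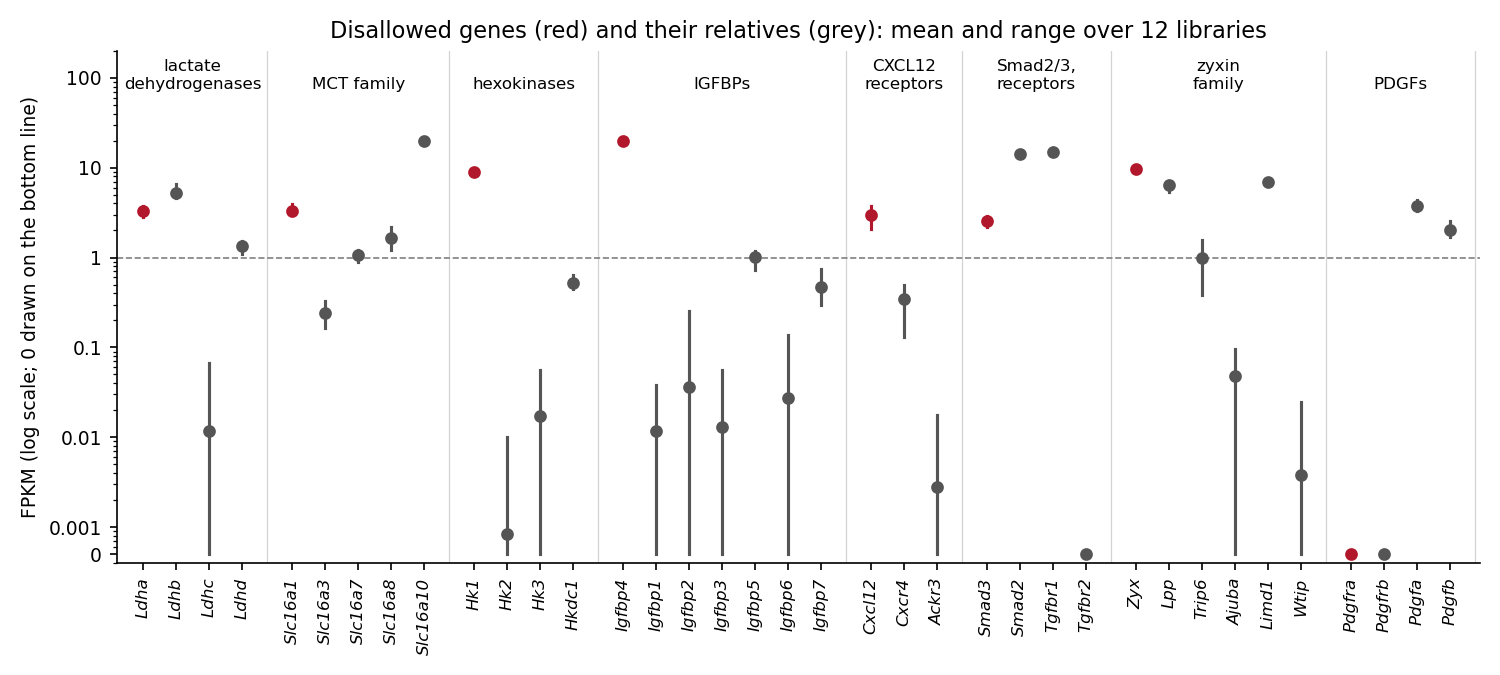
Mean FPKM (points) and range over the 12 libraries (lines) on a log axis for 8 of the disallowed genes, in red, beside related genes, in grey, with 0 drawn on the bottom line. Ldha and Smad3 lie below Ldhb and Smad2, whereas Hk1, Igfbp4 and Cxcl12 lie above the other genes of their panels.

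Oat was silent within a pathway that was otherwise partly transcribed. Ornithine decarboxylase (Odc1), which uses the same substrate to make polyamines, had 86.4 FPKM, the highest of 12 listed enzymes found in the tables. The proline synthesis enzymes Aldh18a1 (35.6) and Pycr1 (7.22) were also expressed, whereas Otc and Prodh had no count in any library. Of the 7 tested genes, 2 were called for high against low glucose averaged over treatments, against 8.19% of all tested genes. Odc1 was higher by 0.48 on the log2 scale (SE 0.0374, adjusted p = 1.27e-10) and Pycr1 by 0.16 (SE 0.0492, adjusted p = 0.0369). Under 11 of 19 alternatives Pycr1 was no longer called, whereas Odc1 was called under all 19.

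Acot7 was likewise silent in a family with several expressed members. Acot13, a mitochondrial thioesterase, had 52.5 FPKM, and Acot8 (10.9), Acot9 (6.33), Acot11 (4.65) and Acot2 (2.20) were also expressed. Acot1, Acot3, Acot4, Acot5, Acot6, Acot10 and Acot12 had at most 0.0428 FPKM on average. Of the 5 tested thioesterases, 0 were called with glucose or TMAO, with adjusted p-values of at least 0.357 and 0 genes at an unadjusted p under 0.05.

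Igfbp4 encodes a secreted protein that binds insulin-like growth factors and limits their action. Its FPKM values were 20.8, 18.9 and 19.0 in low glucose vehicle, 21.7, 19.4 and 20.7 in low glucose TMAO, 19.8, 20.2 and 20.01 in high glucose vehicle and 19.5, 18.8 and 19.1 in high glucose TMAO. At high glucose the TMAO libraries (18.8 to 19.5) lay just below the vehicle libraries (19.8 to 20.2), but the difference was not called (log2 fold change -0.07, SE 0.052, adjusted p = 0.934). With TMAO, high against low glucose gave -0.11 (SE 0.0518, unadjusted p = 0.045, adjusted p = 0.324). Among its relatives, Igfbp5 had 1.01 FPKM, Igfbp7 0.474, and Igfbp1, Igfbp2, Igfbp3 and Igfbp6 at most 0.0358. Igfbp4 was the dominant binding protein transcript in the line. Pappa2, a protease of this family's binding proteins, had 83.9 FPKM while Pappa, which cleaves IGFBP4, had 0.0146, and Igf1r had 13.0. Of the 7 tested genes of this list, 0 were called in any comparison, and at most 1 per comparison (Igfbp4 or Igf1r) had an unadjusted p under 0.05.

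Smad3 encodes a transducer of TGF-beta signals. Its FPKM values were 2.57, 2.58 and 2.37 in low glucose vehicle, 2.72, 2.76 and 2.87 in low glucose TMAO, 2.53, 2.42 and 2.38 in high glucose vehicle and 2.54, 2.50 and 2.20 in high glucose TMAO. The low glucose TMAO libraries were the highest and overlapped none of the other conditions. Even so, TMAO against vehicle at low glucose was not called (log2 fold change 0.15, SE 0.0878, unadjusted p = 0.0902, adjusted p = 1), nor was high against low glucose with TMAO (-0.20, SE 0.0883, unadjusted p = 0.0292, adjusted p = 0.262). Smad2, the other transducer of this branch, had 14.2 FPKM, and the ratio of Smad3 to Smad2 lay between 0.153 and 0.209. The type I receptor Tgfbr1 had 15.1 FPKM, but the type II receptor Tgfbr2, which binds the ligand, had 0 counts in all 12 libraries, while the activin type II receptors Acvr2a and Acvr2b had 5.79 and 3.31. Smad4, the shared partner, was the highest of the list with 25.6.

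Of the 15 tested genes of the TGF-beta list, 1 was higher and 3 were lower with high glucose averaged over treatments, a comparison in which 8.19% of all tested genes were called. Smad3 was not among them. The lower genes were the inhibitory Smad6 (log2 fold change -0.75, SE 0.102, adjusted p = 3.67e-06), Smad9 (-0.34, SE 0.041, adjusted p = 5.35e-07) and Smad1 (-0.14, SE 0.0375, adjusted p = 0.0158), the latter pair being transducers of BMP signals. The ligand Tgfb3 was higher (0.64, SE 0.175, adjusted p = 0.0173). Smad6 and Smad9 were called under all 19 alternatives, Smad1 lost the call under 3 and Tgfb3 under 2.

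Zyx encodes zyxin, a LIM protein of focal adhesions and actin stress fibres. FPKM values were 9.78, 9.54 and 9.04 in low glucose vehicle, 10.4, 9.15 and 10.1 in low glucose TMAO, 10.1, 9.33 and 9.73 in high glucose vehicle and 9.32, 9.58 and 9.31 in high glucose TMAO. All conditions overlapped, with a log2 fold change of -0.02 (SE 0.042, adjusted p = 0.899) for glucose averaged over treatments. Its relatives Limd1 (6.94) and Lpp (6.35) had comparable levels, Trip6 had 0.981, and Ajuba and Wtip had 0.0477 and 0.00385. The partners Vasp (30.2), Enah (33.1), Actn1 (17.7) and Actn4 (123, the highest of the list) were expressed. Of the 8 tested genes, 0 were called with glucose or TMAO, and at most 3 per comparison had an unadjusted p under 0.05. Zyx shares 236 exonic bases with Epha1 on the opposite strand, which had a mean of 141 counts against 981 for Zyx.

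Pdgfra was undetected together with Pdgfrb, the other receptor of the family, which also had 0 counts. The ligands Pdgfa (3.78 FPKM) and Pdgfb (2.04) were expressed, and Pdgfc and Pdgfd did not pass the filter on low counts (at most 0.0526 and 0.167 FPKM in any library). Of the 2 tested ligands, 0 were called with glucose or TMAO, and 0 had an unadjusted p under 0.05.

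Cxcl12, a chemokine that attracts leukocytes and progenitor cells, was the only member called in any comparison. Its FPKM values were 2.54, 2.50 and 2.43 in low glucose vehicle, 2.60, 2.64 and 2.06 in low glucose TMAO, 2.83, 3.50 and 3.65 in high glucose vehicle and 3.78, 3.41 and 3.76 in high glucose TMAO. Each of the 6 high glucose libraries exceeded each of the 6 low glucose libraries. The reads behind these values numbered 316 to 421 per library in low glucose and 434 to 625 in high glucose, and no exon of another gene overlaps those of Cxcl12. With vehicle, Cxcl12 rose by 0.42 on the log2 scale in high glucose (SE 0.0917, 95% interval 0.23 to 0.61, adjusted p = 0.00605). In the same comparison 3.3% of all tested genes were called, against 1 of the 7 tested disallowed genes. With TMAO the log2 fold change was 0.58 (SE 0.0911, interval 0.40 to 0.77, adjusted p = 0.000118), where 3.64% of all tested genes and again 1 of 7 disallowed genes were called. Averaged over treatments it was 0.50 (SE 0.0646, adjusted p = 3.16e-06), or 1.42-fold, with 8.19% of tested genes and 1 of 7 disallowed genes called. The median log2 fold change of the 7 genes was -0.02, and that of all tested genes was 0.00108.

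**Figure D3:**
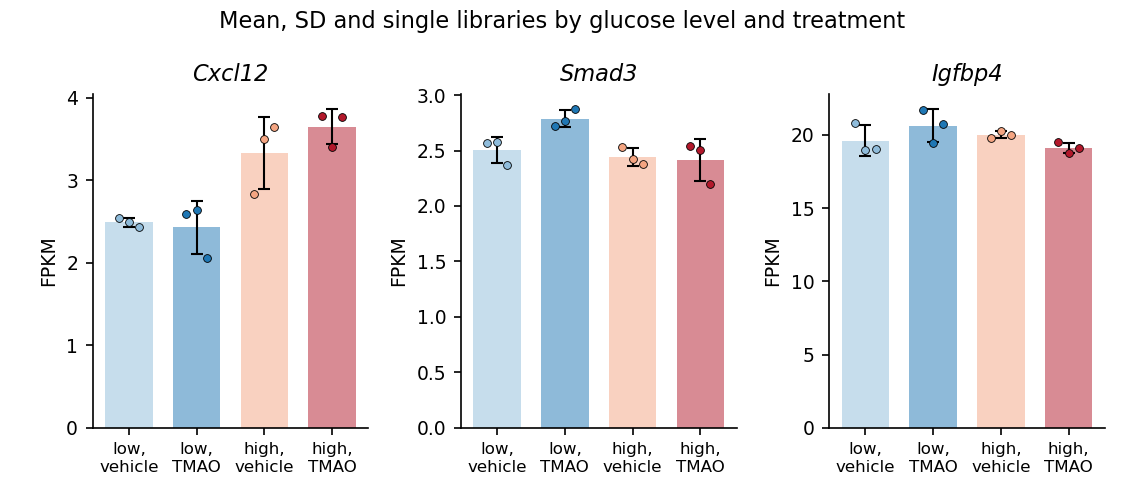
FPKM of Cxcl12, Smad3 and Igfbp4 by condition, with bars for the mean, error bars for the SD and points for the 3 libraries of each condition. For Cxcl12 the high glucose points (2.83 to 3.78) all lie above the low glucose points (2.06 to 2.64), whereas for Smad3 and Igfbp4 the differences are small beside their level.

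The increase of Cxcl12 with glucose did not differ detectably between treatments, with an interaction of 0.16 on the log2 scale (SE 0.129, 95% interval -0.10 to 0.43, adjusted p = 1). The call with vehicle was lost without high glucose vehicle replicate 3 (adjusted p = 0.0658) and in limma on log2(FPKM + 1) (adjusted p = 0.0975), while the calls with TMAO and averaged over treatments held under every alternative run. Of the receptors, Cxcr4 had 0.343 FPKM and the scavenger Ackr3 had 2 counts in all. Dpp4, a protease that inactivates CXCL12, had 27.7 FPKM and was also higher with high glucose averaged over treatments (log2 fold change 0.11, SE 0.0312, adjusted p = 0.0242), a call lost under 5 of 19 alternatives.

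Cxcl12 is also made by stromal, endothelial and myeloid cells, and the markers of these cells were summed beside it. The 10 stromal markers summed to 0.714 to 0.854 FPKM per library in low glucose vehicle, 0.708 to 0.969 in low glucose TMAO, 0.616 to 0.71 in high glucose vehicle and 0.588 to 0.796 in high glucose TMAO. Of 6 endothelial markers only Plvap (3.92 FPKM) was expressed, and its library sums overlapped between glucose levels. Of 6 macrophage and leukocyte markers only Cd68 (4.04 FPKM), a lysosomal protein not limited to macrophages, was expressed, with sums of 2.91 to 3.66 in low glucose vehicle, 3.91 to 4.14 in low glucose TMAO, 4.40 to 4.91 in high glucose vehicle and 4.19 to 4.35 in high glucose TMAO. The defining markers Ptprc and Adgre1 had no count in any library. The fold change of Cd68 in high against low glucose with vehicle was 0.46 on the log2 scale (edgeR adjusted p = 0.0743), and with TMAO it was 0.07 (SE 0.141, adjusted p = 0.885). Limma called Cd68 with vehicle and averaged over treatments with either pseudocount, while edgeR and DESeq2 called it in neither. The part of stromal cells or of Cd68-expressing cells in the Cxcl12 result was not tested.

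None of the disallowed genes passed the test for TMAO. At low glucose, 0 of 7 were called, with 0.00616% of all tested genes (1 gene) called, and the log2 fold changes lay between -0.05 for Ldha and 0.15 for Smad3. At high glucose, 0 of 7 were called, and 0% of all tested genes, with log2 fold changes from -0.07 for Igfbp4 to 0.13 for Cxcl12. The 95% intervals at the 2 glucose levels lay between -0.27 and 0.33, and none extended beyond these values. Averaged over glucose levels, 0 of 7 disallowed genes and 0% of tested genes were called, and the interaction gave 0 of 7 and 0%. Among the 7 disallowed genes, 0 had an unadjusted p under 0.05 in these 4 comparisons. Over all tested genes, edgeR gave 357 genes for TMAO at low glucose, 868 at high glucose, 588 for the average and 545 for the interaction at that threshold. DESeq2 called 3 genes for TMAO at high glucose, 2 for the average and 1 for the interaction, and limma on log2(FPKM + 1) called 0 in each of these comparisons.

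**Figure D4:**
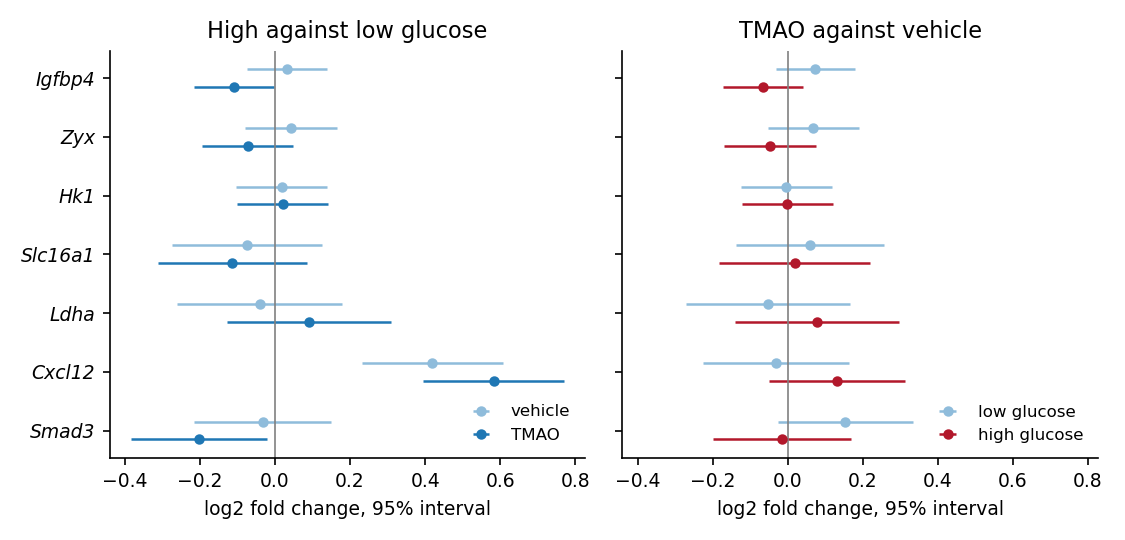
Log2 fold changes (points) with 95% intervals (lines) of the 7 tested disallowed genes, for high against low glucose with each treatment on the left and for TMAO against vehicle at each glucose level on the right. Only the intervals of Cxcl12 with glucose lie wholly above 0 on the left, from 0.23 upwards, those of Smad3 and Igfbp4 with TMAO lie just below 0, and on the right every interval includes 0.

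Variation over the 12 libraries was small for most expressed members. The SD was 4.48% of the mean for Zyx, 4.49% for Igfbp4, 5.07% for Hk1, 7.33% for Smad3, 7.71% for Ldha and 8.48% for Slc16a1, and 20.3% for Cxcl12. The genes whose log2 CPM followed each member most closely were taken from 12308 genes, over 12 libraries that share condition and depth. The correlations are descriptions, and picking the highest of so many raises r by itself. Shared regulation was not tested. Cxcl12 was followed by Nipal1 (Pearson r = 0.98), Coq10b (0.973) and Inpp5f (0.972), and within conditions, after removal of the condition means, Coq10b kept 0.972. Smad3 was followed by Emilin1 (0.945), Rgp1 (0.915) and Lingo1 (0.913), and Igfbp4 by Rps2 (0.915), Rps6ka1 (0.906) and Hras (0.887). Zyx was followed by Man2b2 (0.909), Zbtb4 (0.904) and Ret (0.89), and Slc16a1 by Cnih1 (0.894), Sec24d (0.873) and Mcph1 (0.841). The closest for Hk1 were Ccdc58 (0.877), Dyrk2 (0.864) and Agpat3 (0.86), and for Ldha Psmd4 (0.837), Fam69b (0.826) and Tjp3 (0.821).

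Factors that have been linked to repression of disallowed genes were themselves expressed. The maintenance DNA methyltransferase Dnmt1 had 67.5 FPKM and the de novo enzyme Dnmt3a had 25.6, whereas Dnmt3b had 0.783. The Polycomb subunits Suz12 (39.1), Ezh2 (16.1) and Eed (13.2) were expressed, as were the islet transcription factors Rfx6 (25.2), Pax6 (33.2), Nkx2-2 (53.8) and Neurod1 (105, the highest of the list). Of these 10 genes, 2 were called for high against low glucose averaged over treatments, against 8.19% of all tested genes, and both were higher, Neurod1 by 0.59 (SE 0.0315, adjusted p = 3.68e-15) and Nkx2-2 by 0.21 (SE 0.0317, adjusted p = 1.45e-05) on the log2 scale. None was called with TMAO, where Nkx2-2 at high glucose alone had an unadjusted p under 0.05.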

How the data were processed

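The 12 libraries were prepared with poly-T selection and the NEBNext Ultra kit. The authors used HISAT2 2.0.5 and featureCounts 1.5.0-p3 on mm10, per the submitters' processing notes, and deposited fragment counts per gene without normalization and FPKM values. Counting settings for strand and multiple matches are not given in the sources used here. FPKM values implied a library total within 1.37% of the sum of counts. Totals were 16793162 to 22340542. Replicate pairs differed by more than sampling noise (mean chi-square per gene 2.55 to 7.39). The study's methods give 2.8 mM for low and 16.8 mM for high glucose.

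Counts were fitted in edgeR 4.0.16 (R 4.3.3) with filterByExpr, TMM normalization and the robust quasi-likelihood test, with all 12 libraries and the 4 condition means. The alternatives were DESeq2 1.42.0 (size factors or Wald test), other filters, 6 libraries only, a replicate block and limma 3.58.1 with a pseudocount of 1 or 0.1 on the log2 FPKM scale, besides leaving out each library.

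All 10 members were named, with listed relatives that are their closest partners, were called or had the highest level of their list, all listed repressors and the 3 genes of most similar pattern. The members and lists were chosen with earlier results of these data known. Copies were sought with blastn 2.17.0 (95% identity over 150 bases) in GENCODE M21 transcripts. P-values measure the spread between cultures of a single line. Some related genes that the naming rule would include are not reported here.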

Additional observations from a re-analysis of the deposited data

How the results depend on the processing

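Of 10 members, 7 were expressed at an FPKM of at least 1, and 3 at a threshold of 5. The count was 7 at a threshold of 0.5 and with at least 10 counts. Without a filter on low counts, 7 genes were called for TMAO at low glucose, 13 at high glucose, 9 for the average and 6 for the interaction. DESeq2 called 3 genes for TMAO at high glucose, 2 for the average and 1 for the interaction. With only the 6 libraries of a comparison, 3 genes were called for TMAO at either glucose level. Limma called 0 for TMAO at low glucose with either pseudocount, and 347 (log2(FPKM + 1)) or 337 (log2(FPKM + 0.1)) for glucose with TMAO against 591. Leaving out 1 library gave 0 to 1 for TMAO at low glucose, 0 to 1 for TMAO at high glucose, 329 to 617 for glucose with vehicle, 344 to 667 for glucose with TMAO, 976 to 1456 for glucose averaged, 0 to 2 for TMAO averaged and 0 to 2 for the interaction.

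The replicate block gave 717, 783 and 1678 genes for glucose with vehicle, with TMAO and averaged, 1, 0 and 0 for TMAO at low glucose, at high glucose and averaged, and 0 for the interaction, and changed no call of a member. The labels do not say what a replicate number marks. The deviations of same-numbered libraries had r between -0.0804 and 0.398 (mean 0.0826, against -0.0411 for other numbers), above 0.1 in 6 of 18 pairs, and 10 of 12 libraries were nearest their own number, a hint from the data of a shared structure. The libraries were not treated as paired.

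Cxcl12 lost its call with vehicle in limma (adjusted p = 0.0975 and 0.101) and without high glucose vehicle replicate 3 (adjusted p = 0.0658). The cause was not tested. Small fold changes of uncalled members changed sign when a library was left out. Over these fits the log2 fold changes with glucose averaged over treatments were -0.0191 to 0.0663 for Ldha, -0.0154 to 0.0477 for Hk1 and -0.0431 to 0.0042 for Zyx, and those with TMAO averaged over glucose levels were -0.0238 to 0.0562 for Ldha, -0.0106 to 0.0748 for Slc16a1, -0.0207 to 0.0321 for Hk1, -0.0153 to 0.026 for Igfbp4, -0.0022 to 0.101 for Cxcl12 and -0.0091 to 0.0382 for Zyx. For Cxcl12 with TMAO at low glucose the range was -0.093 to 0.0713. Of 16 related or marker genes called with glucose, 8 were called under every alternative. The 3 members near 0 counts allow no fold change at this depth.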

Other observations

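Among 12 further genes described as repressed in beta cells, listed by hand, 4 were expressed. Maf, a transcription factor, had a mean of 6.72 FPKM, Fgf1 5.93, Lmo4 4.28 and the neuronal repressor Rest 1.252. Mgst1, Yap1, Gas6 and Tgm2 stayed below the filter on low counts, with Yap1 at 2 counts in all 12 libraries. Of the 8 genes tested, Maf was the only call: it rose with high glucose, by 0.65 on the log2 scale averaged over treatments (SE 0.0527, edgeR adjusted p = 1.81e-09), in a comparison that called 8.19% of all tested genes. Its libraries ranged from 4.64 to 9.31 FPKM. With TMAO, edgeR, DESeq2 and limma called 0 of the 8, and 0 had an unadjusted p under 0.05.

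Beta cell identity genes were also compared between glucose levels. Of 14 markers, 4 were called, against 8.19% of all tested genes (670 higher and 658 lower), and all 4 were higher in high glucose averaged over treatments: Neurod1, Mafa (log2 fold change 0.54, SE 0.0789, edgeR adjusted p = 0.00264), Slc2a2 (0.10, adjusted p = 0.0478) and Iapp (0.09, adjusted p = 0.0413). Among the uncalled markers, Nkx6-1 (-0.12, edgeR adjusted p = 0.112) and Glp1r (-0.08, adjusted p = 0.164) were lower and all others were higher. Of other islet cell markers, Gcg was higher by 0.11 (SE 0.0292, adjusted p = 0.0102). Slc2a2 lost its call under 12 of 19 alternatives and Iapp under 10, whereas Mafa and Gcg were called under all 19.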
